A study of Mus musculus with 35 samples.

Results

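The genes described here encode the subunits of respiratory complexes II to V and cytochrome c that the nuclear genome carries. They were taken by symbol: Sdha, Sdhb, Sdhc, Sdhd, Cyc1 and Cycs, and every symbol that began with Uqcr, Cox4, Cox5, Cox6, Cox7, Cox8 or Atp5, without pseudogene symbols ending in -ps. The rule found 49 of the 24421 genes in the count tables and used no measured value. Atp5s and Atp5sl, 2 genes whose products are not subunits of the ATP synthase, also fell under the rule and were kept. Cox7a2l, which encodes a factor that joins complexes III and IV into supercomplexes, was kept with complex IV.

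RNA was sequenced in 35 libraries of immortalized mouse embryonic fibroblasts (MEFs) with the genotype Nelfb flox/-, in which the remaining floxed allele of Nelfb can be removed by Cre. NELFB is a subunit of the negative elongation factor (NELF), which holds RNA polymerase II near promoters. The 20 populations carried pLenti-EV (empty vector), pLenti-WT-NELFB, pLenti-MT194, pLenti-MT486 or pLenti-DMT, which joins MT194 and MT486, and were collected 7 days after infection with an adenovirus carrying Cre and GFP (called Cre below) or GFP alone (called GFP below), with 2 replicates, from 2 separate experiments, in each of 10 groups. MT194 is a mutant of NELFB that binds neither NELFA nor the NELFC/D subunit, MT486 a mutant that does not bind NELFE, and DMT holds both changes. The paper found MT194 mainly in the cytoplasm and MT486 mainly in the nucleus. The 15 clones were isolated singly after Ad-Cre, 3 in each of 5 groups: WT, MT194 and MT486 in pLenti vectors, WT(N48) from pBabe-WT-ATG-NELFB, and Δ-C60, a protein shortened at its C terminus, from pBabe-delta-C60. Every library thus came from a Nelfb flox/- background, each clone library was 1 clone, and the introduced Nelfb came from a viral vector (with a CMV promoter in pLenti) and not from its own promoter. Between 17969100 and 29080000 reads fell on genes in a population library (median 21617300) and between 18413300 and 27816700 in a clone library (median 20933000). Levels are given in CPM (counts scaled to a common library size), adjusted by the trimmed mean of M values (TMM) separately over populations and over clones, so that levels were not compared between these sets.

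In the respiratory chain, complex II (succinate dehydrogenase, also an enzyme of the citrate cycle) passes electrons from succinate to ubiquinone, complex III passes them on to cytochrome c, and complex IV hands them to oxygen. Complexes III and IV pump protons out of the matrix, and complex V, the ATP synthase, lets protons return through a ring of c subunits and makes ATP in its F1 head. Complex II is encoded wholly in the nucleus, whereas the catalytic core of complex IV, cytochrome b of complex III and a channel subunit of complex V come from mitochondrial DNA. Those 13 mitochondrially encoded subunits, which include subunits of complex I, were not analysed here. Several subunits of complex IV have isoforms that are restricted to muscle, lung, testis or other tissues.

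Nelfb itself was read first, as a check of the labels. It stood at 7.97 and 5.46 CPM in the EV-Cre libraries against 46.1 and 39.5 CPM in EV-GFP, a log2 fold change of -2.67 ± 0.22 (SE, adjusted p = 2.53e-05, edgeR). In the other Cre populations it stood between 60.5 CPM in WT-Cre and 208 CPM in DMT-Cre. Among clones it was at 56.3 to 247 CPM in 13 libraries, but at 10.3 CPM (200 reads) in the library labelled WT clone 1 and at 15.5 CPM (306 reads) in the library labelled WT clone 3, against 109 CPM (2637 reads) in the library labelled WT clone 2. Those 2 libraries went against their label. The changes of the members called in MT194 against WT clones are therefore also given with WT clone 2 alone. The libraries of MT486 clones 1 and 2 differed by a chi-square of 5.06 per degree of freedom, above sampling noise but far below the 32.4 or more of all other pairs of libraries of a group. They were counted as 2 samples. The fibroblast label held: 11 of 12 fibroblast markers averaged over 1 CPM, led by Fn1 with 2415 to 26336 CPM, whereas 0 of 7 epithelial and 0 of 5 endothelial markers did. Among the other marker lists, 2 of 7 immune (led by Cd68, 2.68 CPM on average), 2 of 6 neural (Tubb3, 12.3 CPM), 1 of 5 adipocyte (Fabp4, 55.4 CPM) and 1 of 7 striated muscle markers (Tnnt2, 1.21 CPM) averaged over 1 CPM.

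The members together took 0.641% and 0.509% of the reads on genes in the EV-GFP libraries and 0.475% and 0.356% in the EV-Cre libraries. In WT the shares were 0.668% and 0.574% with GFP and 0.649% and 0.577% with Cre. Each EV-Cre library was thus below both EV-GFP libraries, whereas the WT groups overlapped. In the clones the shares ran from 0.607% to 0.855%.

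Levels were compared between genes per length, as CPM per kb of the main annotated transcript, in EV-GFP. Atp5b, the catalytic β subunit of the F1 head, had the highest mean at 601 CPM per kb (1150 ± 118 CPM, SD, n = 2), followed by Cox4i1, the largest nuclear-encoded subunit of complex IV, at 559 CPM per kb (428 ± 21.9 CPM). Cox6a1 and Cox8a, small subunits of complex IV, followed at 477 and 427 CPM per kb. The 272 ± 84.1 CPM of Cox6a1 is wide enough that its place among these neighbours is not set by the data. First place holds only in the mean: in the library EV-GFP 2, Atp5b lay below both Cox4i1 and Cox6a1 per kb. In complex II, Sdhd, a membrane anchor, stood at 143 CPM per kb, the flavoprotein Sdha at 96.6, the iron-sulfur subunit Sdhb at 47.7 and the other anchor Sdhc at 25.9. In complex III, the hinge protein Uqcrh stood at 176 CPM per kb, the core subunit Uqcrc1 at 79.0 and the Rieske iron-sulfur protein Uqcrfs1 at 60.

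**Figure D1:**
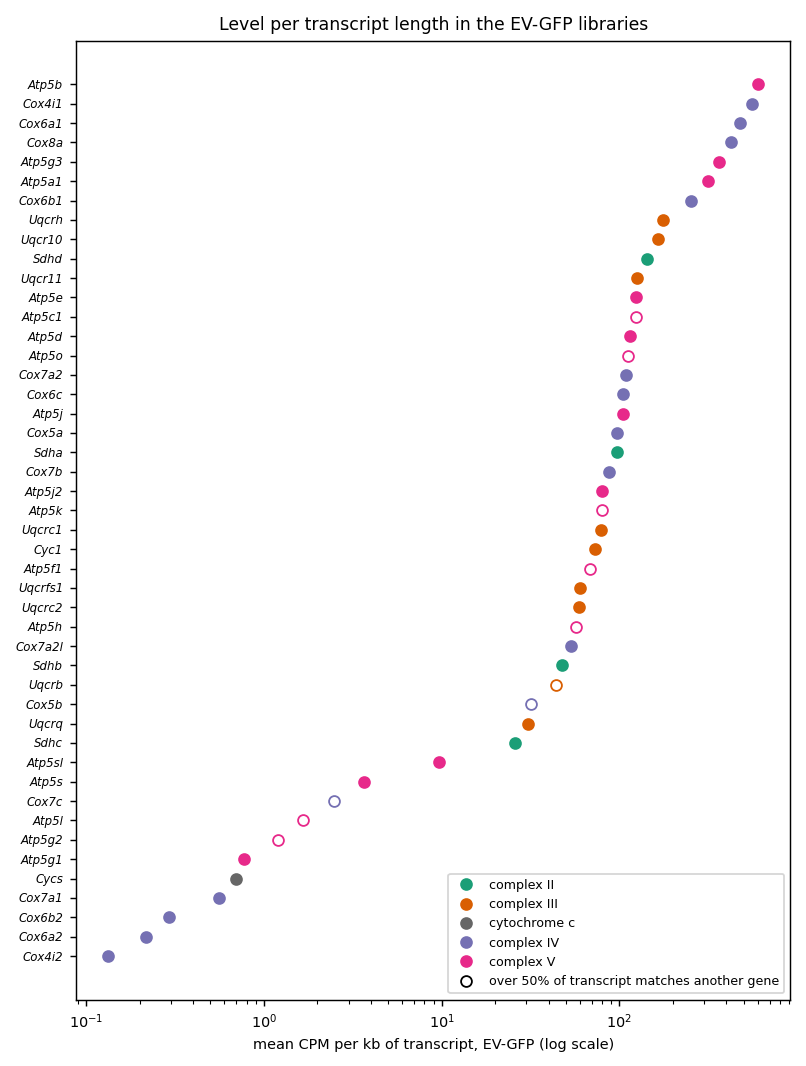
Mean level of 46 members in the EV-GFP libraries (n = 2) in CPM per kb of transcript on a log axis, ordered from high to low and coloured by complex. Open circles are members with over 50% of the transcript matching another annotated gene, and 3 members listed at 0 are not drawn. Most members sit between 25.9 and 601 CPM per kb, and the tissue isoforms of complex IV sit at the bottom.

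The tissue isoforms of complex IV were near the floor. In EV-GFP, Cox7a1 stood at 0.560, Cox6b2 at 0.292, Cox6a2 at 0.216 and Cox4i2 at 0.133 CPM per kb, and Cox7b2, Cox8b and Cox8c were at 0. Their partners Cox4i1, Cox6a1, Cox6b1, Cox7a2, Cox7b and Cox8a stood between 87.3 and 559 CPM per kb. Of these isoforms only Cox6a2 had enough reads to pass the filter on low counts: the other 6 had at most 15 reads in any library. Among population groups its reads were highest in EV-Cre (24 and 20) and DMT-Cre (13 and 22). Its entry into the tests thus leaned on groups where it was high, and a rise there is not independent of that filter.

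A second set of members was low although each encodes a subunit with no known restriction to one tissue, or a protein that most cells use. Cox7c (a small subunit of complex IV) stood at 2.49 CPM per kb, Atp5l (subunit g of the ATP synthase) at 1.66 and Cycs, the cytochrome c gene of somatic cells, at 0.698. Of the 3 genes for the c subunit, Atp5g3 stood at 362 CPM per kb, but Atp5g2 at 1.20 and Atp5g1 at 0.768. The counts held reads of 50 bp that had to map with a quality of at least 30, and respiratory genes have many processed pseudogenes. A stretch of at least 50 bases with 95% identity to transcripts of other genes covered 88.2% of the Atp5g2 transcript, 72.2% of Atp5l, 58.3% of Cox7c, 35% of Cycs and 19.7% of Atp5g1, but 0% of Atp5g3, Atp5b and Cox4i1. High levels were also seen with such similarity, as in Atp5o (76.7% covered, 112 CPM per kb) and Atp5c1 (55.7% covered, 124 CPM per kb). The transcripts used differed in length, with 4715 bases for Atp5g1 and 3123 for Cycs against 723 for Atp5g3. Both the level per kb and the share covered depend on that length. Only annotated transcripts were searched, so similarity to pseudogenes outside them was not measured. The part of unassigned reads in these levels was not tested, and the level of such a member is uncertain, whereas its fold change compares the same countable bases. Reads across exon junctions could also be missed, since the aligner does not splice: such reads would make up 45.7% of the 50-base windows of Atp5k and 3.3% of those of Uqcrq.

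The first comparison asked what changed with Cre, which lowered Nelfb, in cells that carried the empty vector. In EV, 40 of 43 tested members lay below 0 (Cre over GFP), with a median log2 fold change of -0.41 against 0.00036 over all 13805 genes tested, of which 49.9% lay below 0. Of the members, 9 fell and 1 rose at an adjusted p under 0.05, where 6.55% of all genes fell and 6.43% rose. With the experiment as a replicate block, 28 members fell and 1 rose, where 21.8% of all genes fell and 21.2% rose. DESeq2 called 12 members, 11 of them lower, where it called 17.8% of all genes and 9.07% lower. Of the members, 40 of 43 lay below 0 in both edgeR fits. In bulk RNA, fewer cells with a transcript and less of it per cell cannot be told apart.

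**Figure D2:**
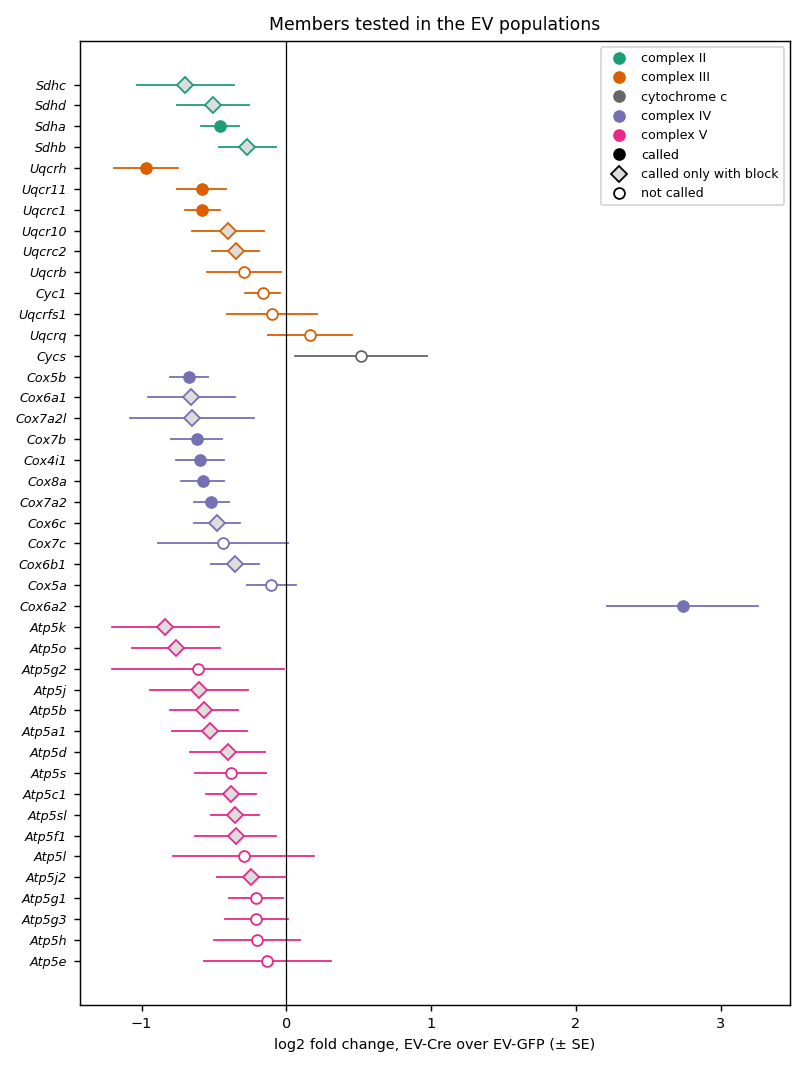
Log2 fold change (EV-Cre over EV-GFP, n = 2 and 2) with its SE for the 43 members tested, ordered by complex. Filled circles passed an adjusted p of 0.05, grey diamonds passed only with the replicate block and open circles passed neither. Nearly all members lie left of 0, and Cox6a2 lies far to the right at 2.74.

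All 4 subunits of complex II lay below 0, and Sdha, which holds the FAD and oxidizes succinate, fell. Sdha (chr13:74322254-74350280, mm10) stood at 208 and 201 CPM in EV-Cre against 269 and 291 CPM in EV-GFP. The groups did not overlap, and the log2 fold change was -0.46 ± 0.13 (SE, adjusted p = 0.0342). Sdhb, which hands electrons on through its iron-sulfur clusters, stood at 51.4 and 38.9 CPM against 58.2 and 50.7 CPM. Its groups overlapped, and the change was -0.27 ± 0.20. The anchors Sdhc and Sdhd, which hold the enzyme in the membrane, had -0.70 ± 0.33 and -0.51 ± 0.25. None of these 3 passed without the block, and each passed with it.

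In complex III, 8 of 9 subunits lay below 0 and Uqcrh, Uqcrc1 and Uqcr11 fell. Uqcrh (chr4:116066965-116075071), the hinge protein beside cytochrome c1, was the member with the largest fall: it stood at 51.8 and 46.4 CPM in EV-Cre against 106 and 86.7 CPM in EV-GFP, a log2 fold change of -0.97 ± 0.22 (adjusted p = 0.0131). Uqcrc1 (chr9:108936633-108949623), a core subunit, stood at 94.0 and 80.7 CPM against 131 and 130 CPM, a change of -0.58 ± 0.12 (adjusted p = 0.00755). In both genes each Cre library was below each GFP library. Uqcr11, the smallest subunit, stood at 37.5 and 36.9 CPM against 60 and 51.6 CPM, with a change of -0.59 ± 0.17 (adjusted p = 0.0351). Uqcrfs1, which carries the Rieske cluster that takes electrons from ubiquinol, stood at 88.8 and 63.7 CPM against 92.9 and 70.6 CPM, so that its groups overlapped, and the change of -0.10 ± 0.31 did not pass. Cyc1, cytochrome c1, had -0.16 ± 0.12 and Uqcrq 0.17 ± 0.29. Changes within the complex thus ran from -0.97 to 0.17.

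The promoters of the 3 members of complex III that fell are shown as examples of letters of factors known for nuclear respiratory genes. Each is given 5′ to 3′ on the strand of its gene, from 250 bases before to 50 after the annotated start (RefSeq, GRCm38.p6), with capitals for matches to GCATGCGC (NRF1), CCGGAAG (ETS factors) or AAGATGGC (YY1) on either strand. The windows are chr9:108936398-108936697 on the plus strand for Uqcrc1, chr4:116075021-116075320 on the minus strand for Uqcrh and chr10:80406772-80407071 on the minus strand for Uqcr11. In Uqcrc1 the capitals are 2 overlapping matches to the NRF1 letters, in Uqcrh an ETS match, and in Uqcr11 an ETS match followed by an NRF1 match.
Uqcrc1: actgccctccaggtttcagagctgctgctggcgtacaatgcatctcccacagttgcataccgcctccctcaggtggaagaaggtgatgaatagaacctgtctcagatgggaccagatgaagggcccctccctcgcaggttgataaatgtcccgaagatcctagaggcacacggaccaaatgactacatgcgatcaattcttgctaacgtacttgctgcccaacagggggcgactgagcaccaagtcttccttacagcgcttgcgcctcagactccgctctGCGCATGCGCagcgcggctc
Uqcrh: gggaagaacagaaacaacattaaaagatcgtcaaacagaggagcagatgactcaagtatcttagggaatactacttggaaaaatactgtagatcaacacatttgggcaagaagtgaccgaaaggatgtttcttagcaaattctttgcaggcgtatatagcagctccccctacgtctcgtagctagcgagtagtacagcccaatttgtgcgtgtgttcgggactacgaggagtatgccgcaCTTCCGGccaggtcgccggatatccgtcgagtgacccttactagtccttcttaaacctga
Uqcr11: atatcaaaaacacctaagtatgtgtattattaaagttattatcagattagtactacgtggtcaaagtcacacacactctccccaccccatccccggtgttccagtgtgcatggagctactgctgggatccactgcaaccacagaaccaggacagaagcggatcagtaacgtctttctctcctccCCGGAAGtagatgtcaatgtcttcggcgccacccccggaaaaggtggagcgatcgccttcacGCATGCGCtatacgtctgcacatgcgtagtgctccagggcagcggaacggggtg
Among the other members that fell, Cox8a holds the ETS letters, and the windows of Sdha, Cox5b, Cox7b and Cox7a2 hold none of the 3, while Cox4i1 was not matched to a window. Cycs, which lay above 0, holds the NRF1 letters. Promoters were matched for 38 of 49 members, 42 windows in all. The NRF1 letters were in 19.0% of them and in 2.71% of all 32851 windows of the same length, the ETS letters in 28.6% and 8.86%, and the YY1 letters in 11.9% and 2.75%. A match describes the sequence and is not a site of binding, and any of the 3 stood in 45.2% of the member windows and 13.3% of all.

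Cycs, which carries electrons from complex III to complex IV, went the other way without passing: it stood at 3.60 and 2.64 CPM in EV-Cre against 2.70 and 1.66 CPM in EV-GFP. The groups overlapped, each Cre library was above the GFP library of its experiment, and the change was 0.52 ± 0.46 (adjusted p = 0.531). Cycs had only 34 to 80 reads in these 4 libraries.

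In complex IV, all 10 widely expressed subunits lay below 0, with a median of -0.55, and 5 fell. Cox5b (chr1:36691449-36693681), a zinc-binding subunit on the matrix side, stood at 18.6 and 15.8 CPM in EV-Cre against 26.5 and 28.3 CPM in EV-GFP, a change of -0.67 ± 0.13 (adjusted p = 0.00485). Cox4i1 stood at 258 and 309 CPM against 412 and 443 CPM, a change of -0.59 ± 0.16 (adjusted p = 0.0304). Neither gene had overlapping groups. Of the small membrane subunits, Cox8a stood at 161 and 153 CPM against 242 and 227 CPM (-0.58 ± 0.15, adjusted p = 0.0231). Cox7b stood at 64.6 and 49.2 CPM against 87.7 and 87.2 CPM (-0.62 ± 0.18, adjusted p = 0.0337). Cox7a2 stood at 50.3 and 50.1 CPM against 72.3 and 71.8 CPM (-0.52 ± 0.12, adjusted p = 0.0133). In all 3 the Cre libraries were below the GFP libraries. Cox5a, another matrix-side subunit, had 61.3 and 55.9 CPM against 64.1 and 61.7 CPM and a change of -0.10 ± 0.17 (adjusted p = 0.769). The supercomplex factor Cox7a2l had -0.65 ± 0.43 (adjusted p = 0.376, and 0.0106 with the block), with 44.2 and 29.2 CPM against 77.4 and 37.5 CPM.

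The member that rose was Cox6a2 (chr7:128205435-128206387), the heart and skeletal muscle isoform of subunit VIa. It had 24 and 20 reads in EV-Cre and 3 and 3 reads in EV-GFP, or 1.08 and 0.942 CPM against 0.147 and 0.146 CPM. The groups did not overlap. The fitted change was 2.74 ± 0.52 (adjusted p = 0.00417), and the ratio of the summed reads per depth was 6.90 with an exact 95% interval of 2.93 to 19.8 that covers counting error only. Its entry into the tests leaned on groups where it was high, EV-Cre among them. The adjusted p and the interval are thus not independent support for a rise. Its widely expressed partner Cox6a1 had 157 and 189 CPM against 213 and 332 CPM, a change of -0.66 ± 0.30 (adjusted p = 0.185). Even in EV-Cre, Cox6a2 thus stayed at about 1 CPM. The 7 striated muscle markers summed to 0.541 and 0.424 CPM in EV-Cre and 0.295 and 0.0975 CPM in EV-GFP, and over all 35 libraries only Tnnt2 of the 7 averaged over 1 CPM (highest 11.2 CPM, with Myod1 reaching 13.1 and Des 3.00 CPM), while Ckm stayed at or below 0.0802 and Myog at or below 0.05 CPM. In DMT, where Cox6a2 had 13 and 22 reads with Cre and 6 and 5 with GFP, the same sums were 0.268 and 0.159 CPM with Cre and 0.416 and 0.18 CPM with GFP. Acta2, the actin of smooth muscle and activated fibroblasts, stood at 134 and 123 CPM in EV-Cre against 17.8 and 15.9 CPM in EV-GFP, and it was higher with Cre in every construct. In MT194, where Cox6a2 was lower with Cre, Acta2 stood at 174 and 187 CPM with Cre against 24.9 and 29.6 CPM with GFP. The part of the muscle markers in the Cox6a2 reads was not tested.

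In complex V, all 17 members lay below 0, with a median of -0.38, and 0 passed without the block in edgeR, while 4 of the 17 had an unadjusted p under 0.05, where 26.5% of all genes did. Atp5b, the catalytic subunit, stood at 854 and 701 CPM in EV-Cre against 1240 and 1070 CPM in EV-GFP, and the change of -0.57 ± 0.24 had an adjusted p of 0.142. Atp5a1, the other subunit of the F1 hexamer, had -0.53 ± 0.26 (adjusted p = 0.216). Atp5a1 stood at 601 and 473 CPM against 859 and 690 CPM, and the groups of both genes were apart, with the library of experiment 2 the lower one in each group. With the block, 10 of 17 fell, among them Atp5o (-0.77, adjusted p = 1.39e-05), the stalk subunit known as the oligomycin sensitivity conferring protein, Atp5k (-0.85, adjusted p = 0.000112) of the membrane part and Atp5b (-0.57, adjusted p = 0.000293). Of the c subunit genes, Atp5g3 stood at 247 and 207 CPM against 282 and 242 CPM (-0.21 ± 0.22), Atp5g2 at 0.586 and 0.565 CPM against 0.393 and 1.37 CPM (-0.61 ± 0.60), and Atp5g1 at 3.2 and 3.06 CPM against 3.39 and 3.85 CPM (-0.21 ± 0.18). None of the 3 passed in either fit, and the Atp5g3 and Atp5g2 groups overlapped.

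The share of reads on no gene was also higher in EV-Cre (15.5% and 18.8%) than in EV-GFP (13.9% and 17.7%) in both experiments, and its part in the fall was not tested. Within each experiment on its own, 38 of 43 members were lower in EV-Cre in experiment 1 and 40 in experiment 2, and 38 were lower in both, where 40.4% of all genes were lower in both. Both Cre libraries lay below both GFP libraries for 27 members, against 23.9% of all genes. In DMT, MT194, MT486 and WT, 36, 37, 31 and 27 members were lower in both experiments, where 38.1%, 34.2%, 36.8% and 37.8% of all genes were. Both Cre libraries lay below both GFP libraries there for 26, 15, 8 and 11 members, against 24.2%, 18.0%, 17.5% and 19.4% of all genes. The 10 calls rested on the whole set of libraries: 1 to 4 members were called when an EV library was left out (4 without EV-Cre 1, 1 without EV-Cre 2, 3 without EV-GFP 1 and 4 without EV-GFP 2), where 7.56%, 5.24%, 6.80% and 5.89% of all genes were. With the EV groups fitted alone 0 were, where 1.80% of all genes were. Cox6a2 was called in 4 of the 4 fits without 1 library, Cox5b and Uqcrc1 in 3, Uqcrh and Cox7b in 1 and the other 5 in none. For Cox6a2 this count is not independent support, since its entry into the fits leaned on groups where it was high. With the EV groups alone its adjusted p was 0.0645 (edgeR).

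**Figure D3:**
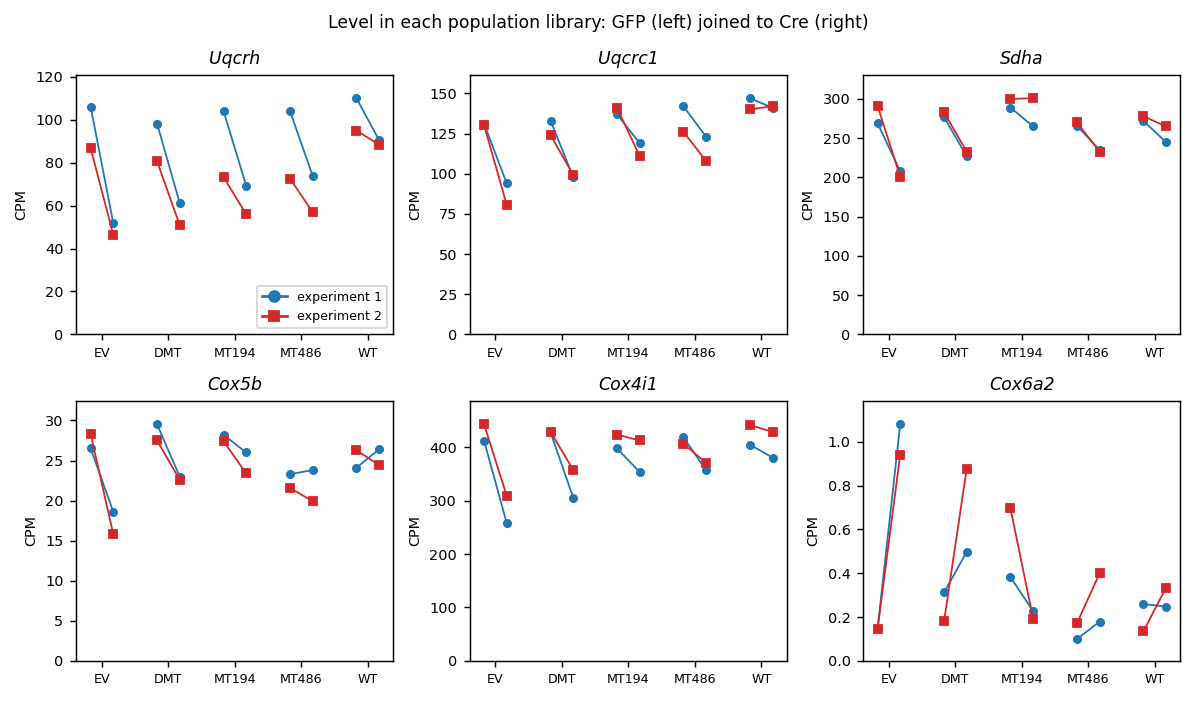
CPM of 6 members in each of the 20 population libraries, with GFP (left) joined to Cre (right) of the same experiment (blue circles, experiment 1; red squares, experiment 2). In EV both lines fall for 5 of the 6 genes and rise for Cox6a2. In WT none of the 5 falls in both experiments by as much as in EV.

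Genes that work with the members were read from lists of pathway genes, beside the 6.55% of all genes that fell and the 6.43% that rose in EV. Of 35 tested nuclear subunits of complex I, 34 lay below 0 in EV and 7 fell (median -0.32), among them Ndufb11 (-0.99, adjusted p = 0.000373) and Ndufs1 (-0.56, adjusted p = 0.0136). Of 13 citrate cycle genes, 11 lay below 0 and 2 fell, Idh3g (-0.61) and Fh1 (-0.51). The 36 assembly factors of complexes II to V were split, with 14 below 0 and 22 above (median 0.16); Uqcc3 (-0.80) and Cox16 (-1.17) fell and Cox18 (0.78) rose. These calls are no more frequent than the 6.55% and 6.43% of all genes that fell and rose. Of 16 regulators of mitochondrial transcription and biogenesis, the coactivators Ppargc1a (-1.05, adjusted p = 0.0306) and Ppargc1b (-1.44, adjusted p = 5.5e-05) and Gabpb2 (-0.67), a subunit of an ETS factor, fell, and Myc (1.74, adjusted p = 3.27e-05) rose. Glycolysis went against the members: 12 of 13 genes lay above 0 (median 0.71) and 5 rose, among them Hk2 (0.72), Pgk1 (1.17) and Ldha (0.75), while Pfkm (-0.73) fell. All 6 ATP and phosphate carriers and porins lay below 0 (median -0.18), and 3 of them fell with the block, where 21.8% of all genes did. Of 3 further genes of the ATP synthase and its inhibitor, 2 lay below 0 (median -0.38), and 2 fell with the block, beside the same 21.8%.

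The same contrast was then read in cells that carried a form of NELFB. In DMT, 39 of 43 members lay below 0, with a median of -0.36, and 2 fell, where 5.92% of all genes did. These were Atp5g1, at 2.68 and 3.35 CPM in DMT-Cre against 4.37 and 4.86 CPM in DMT-GFP (-0.62 ± 0.18, adjusted p = 0.0449), and Atp5sl, which does not encode a subunit, at 15 and 13.2 CPM against 24.3 and 20.7 CPM (-0.67 ± 0.17, adjusted p = 0.0224). The groups of both genes were apart, but 2 of 43 members is no larger a share than the 5.92% of all genes. With the block, 30 members fell and 2 rose, where 20.8% of all genes fell. The 2 that rose, where 2757 of 13805 genes (20%) did, were Cox6a2 (1.53, adjusted p = 0.0185) and Cycs (1.01, adjusted p = 0.00177). The entry of Cox6a2 into the tests leaned on DMT-Cre too, so its call is not independent of the filter on low counts. Without any 1 of the DMT libraries 0 members were called, where 3.69% to 5.64% of all genes were, and with the DMT groups alone 0 were, where 3.63% were, while DESeq2 called 10, all lower, where it called 8.58% of all genes lower.

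In MT194, 40 of 43 members lay below 0, with a median of -0.25, and 0 were called by edgeR, where 4.49% of all genes were. At an unadjusted p under 0.05 there were 6, where 16.4% of all genes were, and DESeq2 called 0. With the block, 15 fell, where 13.8% of all genes did, among them Uqcrh (-0.49, adjusted p = 0.00135) and Cox7b (-0.40, adjusted p = 0.00167). The gene with the smallest p was Cox7c, at 0.454 and 0.770 CPM in Cre against 1.19 and 2.09 CPM in GFP (-1.43 ± 0.47, adjusted p = 0.114).

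In MT486, 35 of 43 members lay below 0, with a median of -0.14, and 0 were called, where 2.54% of all genes were (1 at an unadjusted p under 0.05, where 14.5% of all genes were, and 0 by DESeq2). With the block 6 fell, where 12.4% of all genes did: Atp5a1, Atp5j, Atp5sl, Cox7b, Sdhc and Uqcrh. That share of the members is close to the background. In WT, 33 of 43 lay below 0, with a median of -0.07, and 0 were called, where 0.0217% of all genes were (1 at an unadjusted p under 0.05, where 6.22% of all genes were, and 0 by DESeq2). With the block only Atp5sl fell (-0.40, adjusted p = 0.0205), where 3.26% of all genes did.

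**Figure D4:**
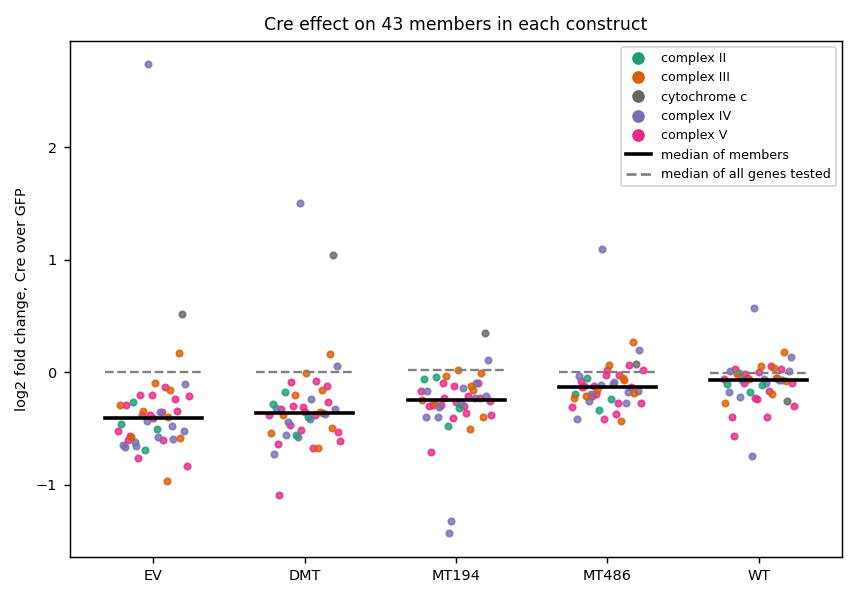
Log2 fold change of Cre over GFP for the 43 members in each construct (n = 2 and 2), coloured by complex, with the median of the members (black) and of all genes tested (dashed grey). The median of the members runs from -0.41 in EV to -0.07 in WT, and Cox6a2 is the highest point in EV, DMT, MT486 and WT but not in MT194.

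Named members followed this order of medians in part. Uqcrh had log2 fold changes of -0.97 in EV, -0.67 in DMT, -0.50 in MT194, -0.44 in MT486 and -0.19 in WT. Uqcrc1 had -0.58, -0.38, -0.27, -0.21 and -0.02 in the same order, and Cox5b -0.67, -0.32, -0.17, -0.04 and 0.01. Sdha broke the order, with -0.46, -0.28, -0.06, -0.20 and -0.11, and each of these values had an SE of 0.13. Cox6a2 turned its sign, with 2.74 in EV, 1.51 in DMT, -1.32 in MT194, 1.09 in MT486 and 0.57 in WT, each from fewer than 25 reads in a library. Its reads in MT194 were 6 and 4 with Cre and 8 and 14 with GFP.

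Whether a construct changed the effect of Cre was tested as a difference of differences against EV. For WT the members had a median of 0.33, and 36 of 43 lay above 0. No member was called by edgeR without the block, where 0.681% of all genes were (7 members at an unadjusted p under 0.05, where 11.7% of all genes were, and 2 by DESeq2, where 3.43% were), and Cox5b had the smallest p (0.68 ± 0.18, adjusted p = 0.136). With the block 20 were called, all higher, where 9.37% of all genes were called higher: the leading genes were Uqcrh (0.78, adjusted p = 0.00137), Uqcrc1 (0.56, adjusted p = 0.0025) and Atp5o (0.68, adjusted p = 0.00399). For MT486 the median was 0.26 and 0 members were called, where 0.00724% of all genes were (3 at an unadjusted p under 0.05, where 5.18% of all genes were, and 0 by DESeq2). Cox5b again had the smallest p (0.63 ± 0.18, adjusted p = 0.679). With the block 3 were called higher (Cox5b, Atp5o and Uqcrh), where 1.62% of all genes were. For MT194 the median was 0.21 and again 0 were called, where 0.00724% of all genes were (3 at an unadjusted p under 0.05, where 3.22% of all genes were, and 0 by DESeq2). Cox6a2 had the smallest p (-4.06 ± 0.74, adjusted p = 0.218), and the block called it alone (-4.05, adjusted p = 0.0168), where 0.529% of all genes were called lower. That call is not independent of the filter on low counts, which Cox6a2 passed with the help of EV-Cre. For DMT the median was 0.11, 0 were called in either fit, where 0.00724% of all genes were, and 0 had an unadjusted p under 0.05, where 1.15% of all genes did. DESeq2 called 0 for DMT, and Cox5b had the smallest p (0.35 ± 0.18). The 4 comparisons share the EV libraries, so that their medians are not independent of each other.

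The Cre populations were also compared with EV-Cre directly. This sets cells with an introduced form of NELFB beside cells in which Nelfb RNA was reduced (7.97 and 5.46 CPM in EV-Cre) but not absent. In WT-Cre, 38 of 43 members lay above 0, with a median of 0.41. There 6 were higher and 1 lower, where 4.15% and 3.85% of all genes were. Uqcrc1 stood at 141 and 142 CPM in WT-Cre against 94.0 and 80.7 CPM in EV-Cre (0.70 ± 0.12, adjusted p = 0.00522). Uqcrh stood at 90.5 and 88.4 CPM against 51.8 and 46.4 CPM (0.87 ± 0.22, adjusted p = 0.0333). The groups of both genes were wide apart. Cox5b (0.56, adjusted p = 0.0208), Cox7a2 (0.56, adjusted p = 0.0151), Cox8a (0.59, adjusted p = 0.0313) and Cox6c (0.59, adjusted p = 0.0381) were the other genes called higher. At 0.248 and 0.334 CPM against 1.08 and 0.942 CPM, Cox6a2 (-1.79 ± 0.46, adjusted p = 0.0317) was lower. This call is not independent of the filter on low counts, which Cox6a2 passed with the help of EV-Cre. With the block 32 were higher and 1 lower, where 20.3% and 19.8% of all genes were. Without EV-Cre 1, EV-Cre 2, WT-Cre 1 or WT-Cre 2 the calls numbered 2, 0, 1 and 0, where 4.76%, 1.60%, 1.59% and 1.23% of all genes were called.

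In MT194-Cre and MT486-Cre against EV-Cre the members had medians of 0.22 and 0.21, and 0 were called, where 0.225% and 0.362% of all genes were. At an unadjusted p under 0.05 there were 6 and 7, where 9.61% and 12.1% of all genes were. DESeq2 called 5 and 1, where it called 2.19% and 3.97% of all genes. The member with the smallest p was Cox6a2 in both (-2.23 ± 0.48, adjusted p = 0.0867, and -1.79 ± 0.46, adjusted p = 0.107), with the same limit from the filter on low counts. With the block, 12 were higher and 1 lower in MT194-Cre, where 7.10% and 5.95% of all genes were, and 14 were higher and 1 lower in MT486-Cre, where 9.55% and 8.34% of all genes were. In DMT-Cre the median was 0.13 and 0 members were called in either fit, where 0.00724% of all genes were without and 0.413% with the block. There 1 had an unadjusted p under 0.05 (Cox5b, 0.41 ± 0.13), where 3.24% of all genes did, and DESeq2 called 0.

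Without Cre, in the GFP populations, the constructs were close. In WT-GFP, MT194-GFP, MT486-GFP and DMT-GFP against EV-GFP the medians of the members were 0.10, 0.0046, -0.06 and 0.04. No member was called in any of these, where 0%, 0%, 0.00724% and 0% of all genes were, and 1, 1, 1 and 0 members had an unadjusted p under 0.05, where 0.608%, 2.00%, 1.83% and 1.27% of all genes did. DESeq2 called 0 members in each. The members with the smallest p were Atp5g1 for WT (0.49 ± 0.18) and DMT (0.35 ± 0.18), Cox6a2 for MT194 (1.83 ± 0.56) and Cox5b for MT486 (-0.28 ± 0.13), at adjusted p near 1.

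The 2 experiments stood apart for these genes. In every one of the 10 groups, 26 of 43 members were lower in experiment 2 than in experiment 1, whereas 23.6% of all genes were. The 2 members that were higher in all 10 groups compare with 22.8% of all genes. Atp5e, the small subunit of the F1 head, was lower by a mean of -0.67 on the log2 scale, Cycs by -0.63 and Cox7a2l by -0.62. Others went the other way: Atp5g2 by 0.60, Atp5l by 0.55, Cox7c by 0.53, Cox6a1 by 0.42 and Cox4i1 by 0.12, and of these Atp5l and Cox6a1 were higher in all 10 groups. Atp5g2, Atp5l, Cox7c and Cycs had few reads, at most 38, 33, 57 and 102 in a population library, so their differences are uncertain. The share of reads on no gene was 11.7% to 15.8% in experiment 1 and 15.2% to 21.3% in experiment 2. Between Cre and GFP it differed in no single direction: it was higher with Cre in both experiments in EV (above), lower in both in WT (11.7% and 15.2% against 13.7% and 16.7%) and in MT486 (14.6% and 19.7% against 14.8% and 21.3%), and higher in experiment 1 but lower in experiment 2 in MT194 (14.2% and 15.3% against 12.9% and 18.2%) and DMT (15.8% and 15.6% against 14.2% and 19.9%). Its part in the members' levels was not tested.

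In the clones, the medians of the members were nearer to 0 than in EV. Of 42 tested, those below 0 numbered 20 in MT194 against WT, 28 in MT486 against WT, 31 in Δ-C60 against WT and 26 in WT(N48) against WT, with medians of 0.02, -0.09, -0.17 and -0.09. Against WT(N48) they numbered 17 in MT194, 20 in MT486 and 28 in Δ-C60, with medians of 0.15, 0.02 and -0.14. The medians over all 13223 genes lay between -0.03 and 0.04.

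In edgeR with all clone libraries, members were called in the comparisons of MT194 alone. Against WT, 3 fell and 1 rose, where 1.63% and 1.29% of all genes did. Cox7a2l (chr17:83501918-83517330), the supercomplex factor, stood at 98.1, 95.2 and 94.7 CPM in MT194 against 46.2, 51.2 and 48.9 CPM in WT. The clones of the 2 groups were far apart with little spread, and the change was 0.98 ± 0.15 (adjusted p = 0.014). WT(N48), MT486 and Δ-C60 lay between, with 72.6 ± 5.47, 66.5 ± 9.51 and 65.5 ± 10.8 CPM (SD, n = 3), and MT194 against WT(N48) gave 0.40 ± 0.15 (adjusted p = 0.121).

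The 3 that fell belong to complexes II and III. Uqcrb (chr13:66900617-66905378), a subunit of complex III beside the ubiquinone site, stood at 18.4, 19.2 and 18.6 CPM in MT194 against 27.8, 35.1 and 29.8 CPM in WT (-0.72 ± 0.16, adjusted p = 0.0405). Uqcrfs1 (chr13:30540308-30545362) stood at 103, 109 and 112 CPM against 160, 158 and 160 CPM (-0.56 ± 0.13, adjusted p = 0.0437). Sdha stood at 222, 249 and 224 CPM against 320, 365 and 338 CPM (-0.56 ± 0.14, adjusted p = 0.0488). No group overlapped for any of them. Against WT(N48), Uqcrb (-0.61 ± 0.16, adjusted p = 0.0411) and Uqcrfs1 (-0.55 ± 0.13, adjusted p = 0.0298) fell too, where 3.29% of all genes did, and Sdha had -0.48 ± 0.14 (adjusted p = 0.0558). Uqcrb shares 62.8% of its transcript with other annotated genes, Cox7a2l 31.2%, and Sdha and Uqcrfs1 0%.

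**Figure D5:**
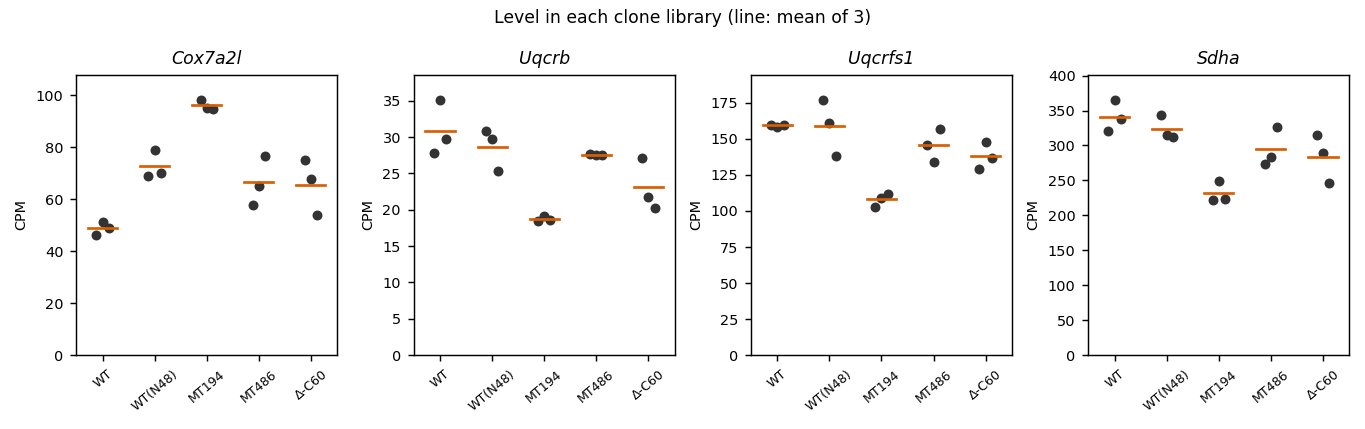
CPM of Cox7a2l, Uqcrb, Uqcrfs1 and Sdha in each of the 15 clone libraries, with the mean of 3 clones as a line. The MT194 clones sit above the WT clones for Cox7a2l and below them for the other 3 genes.

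These clone calls were near the threshold. With any 1 of the 6 libraries left out, 0 or 1 of the 4 calls against WT was made: 0 without WT clone 1, 2 or 3 or MT194 clone 1, and 1 without MT194 clone 2 or 3, where 0.722% and 2.57% of all genes were called. The 0 in the other fits stands without a share of all genes and is not read as a loss particular to the members. With WT clone 2 as the only WT library, the changes of Cox7a2l, Uqcrb, Sdha and Uqcrfs1 were 0.90, -0.92, -0.67 and -0.56. The WT group then holds 1 sample, so only the changes are given. Against WT(N48), 0 were called without MT194 clone 1 or 3 or WT(N48) clone 1 or 2, 2 without MT194 clone 2 and 3 without WT(N48) clone 3, where 4.82% and 10.4% of all genes were in these last fits. Here too, the 0 without a share of all genes is not read as a loss particular to the members. In the MT194 populations, Cre against GFP gave -0.40 for Cox7a2l, -0.25 for Uqcrb, 0.02 for Uqcrfs1 and -0.06 for Sdha, and none of these 4 passed in either fit (adjusted p of 0.128 or more with the block).

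In the other clone comparisons 0 members were called by edgeR. These were MT486 against WT, where 0% of all genes were called (4 members at an unadjusted p under 0.05, where 8.89% of all genes were, and 0 by DESeq2), MT486 against WT(N48), where 0.287% were called (3 members at an unadjusted p under 0.05, where 15.1% were, and 0 by DESeq2), and Δ-C60 against WT(N48), where 0% were called (4 members at an unadjusted p under 0.05, where 11.6% were, and 0 by DESeq2). In Δ-C60 against WT 8.38% of all genes were called (8 members at an unadjusted p under 0.05, where 27.1% of all genes were, and 2 by DESeq2, where 15.7% were). Without Δ-C60 clone 2 there were 6 members, where 13.3% of all genes were called. In WT(N48) against WT 2.10% were (6 members at an unadjusted p under 0.05, where 21% of all genes were, and 4 by DESeq2, where 9.49% were). A fit with WT clone 2 as the only WT library leaves 1 sample in that group. Its calls in MT486, Δ-C60 or WT(N48) against WT are therefore not read. The members with the smallest p were Uqcr11 for MT486 against WT (0.73 ± 0.23), Atp5b for Δ-C60 against WT (0.57 ± 0.19, adjusted p = 0.0753), and Sdhb for the other 3. Sdhb stood at 57.4, 60.8 and 57.5 CPM in WT(N48), below every other clone (68.2 to 109 CPM), and WT(N48) against WT gave -0.66 ± 0.17 (adjusted p = 0.0599).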

How the data were processed

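The authors mapped 50 bp single reads of stranded poly(A) libraries to mm10 (Bowtie2), dropped those under a MAPQ of 30 and summed the rest over genes (HTSeq). The deposited values are these raw counts for 24421 genes, and SAMtools and DESeq2 are also named in the submitters' processing notes, with versions not given in the sources used here. Reads assigned to no gene stayed out of library sizes and tests and made up 11.7% to 21.3% (populations) and 9.14% to 12.0% (clones).

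Populations and clones were each fitted with edgeR 4.0.16 (quasi-likelihood, TMM, filterByExpr; R 4.3.3, limma 3.58.1) over 13805 and 13223 genes, with Benjamini-Hochberg adjustment over all genes tested and calls at 0.05. Of the members, 43 and 42 passed the filter on low counts. The others were Cox4i2, Cox6b2, Cox7a1, Cox7b2, Cox8b and Cox8c, with at most 15 reads in any library, and, in the clones, Atp5l, with 1 to 8 reads there. Population replicates are 2 experiments, per the labels and methods: deviations from group means correlated by 0.420 to 0.730 in 45 of 45 pairs of groups, so a replicate block was also fitted. Where nothing says that samples are independent cultures, p-values measure only the spread between them. Alternatives were DESeq2 1.42.0, its size factors, no filter, the compared groups alone, an absolute log2 fold change over 0.5, and each library left out. A count of 0 members given without the share of all genes in the same fit is not read as a result about the members. The fits were also run on simulated data, and no result given here rests on those runs. Similar sequence was searched with BLAST+ 2.17.0 in GENCODE M21 transcripts.

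Members and gene lists were chosen with earlier results of these data known. Text names go by role, with full values for selected subunits, isoform pairs, the members called, and otherwise the member with the smallest p; the genes shown from other lists were chosen after their values were seen.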

Additional observations from a re-analysis of the deposited data

Results flagged for a closer look

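The effect of Cre (log2, Cre over GFP) on 20 members differed between WT and EV when the difference itself was tested in edgeR with the replicate block; the adjusted p ran from 0.00137 to 0.0476, and 9.37% of all genes were called higher in that fit. In complex II the differences, WT minus EV, were 0.52 for Sdhc and 0.35 for Sdha. In complex III they were 0.78 for Uqcrh, 0.56 for Uqcrc1, 0.5 for Uqcr11, 0.44 for Uqcr10 and 0.29 for Uqcrc2. In complex IV they were 0.68 for Cox5b, 0.57 for Cox6a1, 0.53 for Cox7a2, 0.53 for Cox4i1, 0.52 for Cox8a and 0.41 for Cox7b. In complex V they were 0.76 for Atp5k, 0.68 for Atp5o, 0.6 for Atp5b, 0.47 for Atp5a1, 0.44 for Atp5j, 0.41 for Atp5d and 0.34 for Atp5c1. Without the block 0 of these differences passed.

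By the same blocked test, 3 members differed between MT486 and EV: Cox5b by 0.63, Atp5o by 0.56 and Uqcrh by 0.53 (adjusted p = 0.0276, 0.0429 and 0.0486), where 1.62% of all genes were called higher. Between MT194 and EV, 1 member differed, Cox6a2, by -4.05 (adjusted p = 0.0168), from 4 to 24 reads in the Cre libraries, where 0.529% of all genes were called lower. Its GFP libraries held 3 and 3 reads in EV and 8 and 14 in MT194. The entry of Cox6a2 into the tests leaned on groups where it was high, EV-Cre among them. This difference is thus not independent of the filter on low counts. Without the block edgeR called 0 members in either comparison (Cox6a2 in MT194 against EV, adjusted p = 0.218). These comparisons share the EV libraries.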

How the results depend on the processing

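With the replicate block, the number of members called became 29 in EV (Cre against GFP), 32 in DMT, 15 in MT194, 6 in MT486 and 1 in WT. For the Cre effect against that of EV it became 20 in WT, 3 in MT486 and 1 in MT194, and for Cre populations against EV-Cre 33 in WT, 15 in MT486 and 13 in MT194. The block changed no other population count by over 1.5 times. In the clones replicate numbers do not pair the libraries (3 of 30 correlations over 0.1, and 0 of 15 libraries closest to its own number). A block by number thus has no basis there. Its 1 call for MT194 against WT and 0 against WT(N48) are not read as results about the members. DESeq2 called 10 members in DMT (Cre against GFP), 2 for the WT Cre effect against that of EV, 11, 5 and 1 for WT-Cre, MT194-Cre and MT486-Cre against EV-Cre, 6 for MT194 against WT(N48) clones, and 2 and 4 for Δ-C60 and WT(N48) against WT. It also called more of all genes than edgeR in each of these (for example 13.8% for WT-Cre against EV-Cre, 15.7% against 8.38% for Δ-C60 against WT and 13.7% against 5.86% for MT194 against WT(N48)). Without the filter on low counts the calls were 5 in EV, 1 in DMT, 2 for WT-Cre against EV-Cre, 1 for MT194 against WT and 0 against WT(N48), where 7.10%, 5.70%, 3.90%, 0.906% and 2.46% of all genes were called. With the compared groups alone they were 0 in EV, 0 in DMT, 1 for WT-Cre against EV-Cre, 1 for MT194 against WT, 0 against WT(N48) and 2 for WT(N48) against WT, where 1.80%, 3.63%, 2.80%, 4.28%, 1.07% and 4.56% of all genes were. With 1 library left out they ran from 1 to 4 in EV, 0 to 0 in DMT and 0 to 2 for WT-Cre against EV-Cre. In the clones they then ran from 0 to 1 for MT194 against WT, 0 to 3 against WT(N48), 0 to 6 for Δ-C60 against WT (6 without Δ-C60 clone 2, where 13.3% of all genes were), 0 to 1 for Δ-C60 against WT(N48) (1 without Δ-C60 clone 2, where 2.33% were) and 0 to 1 for WT(N48) against WT (1 without WT(N48) clone 3, where 4.5% were). With WT clone 2 as the only WT clone, an alternative chosen after seeing the data, the lone library was assumed to vary like the other groups. Only log2 fold changes are given for that fit. The cause of these changes in the counts was not tested. The comparisons with any call kept their count within 1.5 times in few alternatives: 3 of 10 for EV, 2 of 10 for DMT, 2 of 10 for WT-Cre against EV-Cre, 3 of 13 for MT194 against WT clones and 4 of 12 against WT(N48).

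The median of the members stayed below 0 under 10 of 10 alternatives in EV (-0.58 to -0.31), DMT (-0.43 to -0.25) and MT194 (-0.38 to -0.09), under 9 of 10 in WT (-0.16 to 0.01) and under 8 of 10 in MT486 (-0.28 to 0.02). Members under the filter on low counts were not tested in the main fits, and their few reads at this depth allow no firm reading. Intervals on reads cover counting error only.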
